A study of Ursus arctos with 12 samples.

Results

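Translation initiation and elongation factors were examined in skeletal muscle of hibernating and active brown bears. Members were the rows of the deposited count table with a symbol that begins with EIF or EEF and with 30 or more reads summed over all libraries, without the eIF2 kinases (EIF2AK genes) and the eIF4E-binding proteins (EIF4EBP genes). This gave 55 of the 17290 genes that passed the same read limit. Of 56 rows with such a symbol, EIF4E1B did not reach it. By factor, there were 4 members of EIF1, 9 of EIF2, 12 of EIF3, 12 of EIF4, 4 of EIF5, 1 of EIF6, 9 of EEF1 and 3 of EEF2, and EEFSEC, which carries no factor number. The libraries came from the vastus lateralis, a thigh muscle, of 6 free-ranging brown bears (Ursus arctos) of 2 to 3 years. Each bear was sampled once in winter, during hibernation, and once in summer, in the active period of the same year, so that 6 winter and 6 summer libraries were compared. No agent or allele distinguishes the groups, and inactivity, fasting, body temperature and time of year cannot be told apart in this design.

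Eukaryotic translation starts when initiation factors bring the methionyl initiator tRNA and the small ribosomal subunit to the cap of an mRNA. eIF2 carries the tRNA and is recharged with GTP by eIF2B, eIF3 is a large scaffold on the small subunit, the eIF4 factors bind the cap and unwind the leader, and eIF5, eIF5B and eIF1A take part in start codon choice and subunit joining. Elongation then needs eEF1A, which delivers aminoacyl-tRNAs and is recharged by the eEF1B complex, and eEF2, which moves the ribosome along. Muscle fibres are known for replacing EEF1A1 by its paralog EEF1A2 as they mature.

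The libraries held 16742406 to 32140160 counted reads, and a member had between 18 reads (EEF1AKMT3) and 113887 reads (EEF1A2) in a library. Levels are log2 CPM (read counts scaled to library size, per 1000000 reads) after TMM normalization with a prior count of 2. The season effect was tested within bears, with edgeR's quasi-likelihood test and the bear as a term, adjusted over the 17290 genes by Benjamini-Hochberg, and a gene was called at an adjusted p below 0.05. Fold changes (FC) are winter/summer, and standard errors (SE) belong to the log2 fold change. They were derived from the test, as the absolute log2 fold change divided by the square root of its F statistic. The muscle fibre markers held between 127000 and 184000 CPM of library totals in summer and between 135000 and 153000 in winter. Summed, they were higher in winter in 1 of 6 bears, and 1 of 7 was called higher and 2 lower. The summed fibroblast markers fell from between 3890 and 11700 to between 252 and 1630 on the same scale, with 5 of 6 called lower. Lower calls were also found for 4 of 5 endothelial, 3 of 5 leukocyte, 2 of 2 satellite cell and 1 of 3 smooth muscle markers, and no listed marker in the table was at 0. These markers moved with the season beside every result that follows, and their part in it was not tested. In bulk muscle, fewer cells of a type and less RNA per cell cannot be told apart.

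Of the 55 members, 18 were called higher and 4 lower in winter. Over all genes tested, 19.6% were called higher and 21.2% lower (40.8% in either direction). The median log2FC of the members was 0.19, beside −0.01 for all genes tested, and taken bear by bear the median was lowest in bear 1509 (0.14) and highest in bear 1317 (0.49). At the stricter limits of an adjusted p below 0.01 and an FC above 1.3 or below 0.77, 14 members were higher and 3 lower, where 12.2% and 13.4% of all genes passed (25.7% in either direction). The 6 winter levels lay wholly above the 6 summer levels for 14 members and wholly below them for 3, beside 9.12% and 8.21% of all genes (17.3% together). All 6 bears moved up in 17 members and down in 5, as they did in 18.4% and 19% of all genes (37.3% together). The calls were uneven between factors, with 9 of the 18 rises in eIF3.

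**Figure D1:**
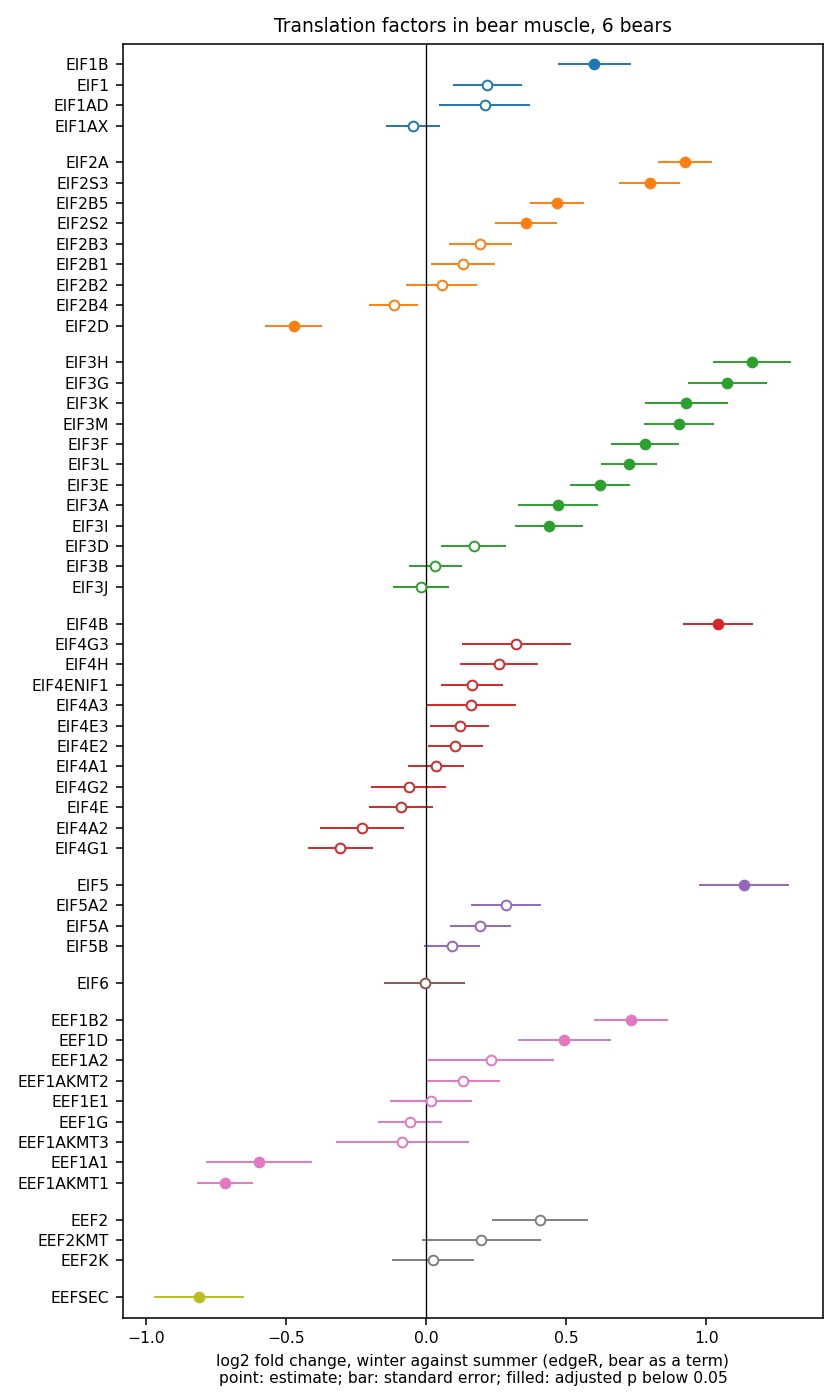
Log2 fold change of winter against summer (x axis) for the 55 members, grouped by factor, with points for the edgeR estimates, bars for their standard errors and filled points for an adjusted p below 0.05. The rises run up to 1.16 for EIF3H, and the 4 filled points on the left are EEFSEC, EEF1AKMT1, EEF1A1 and EIF2D.

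eIF3, the largest initiation factor, binds the small ribosomal subunit and holds the other factors there. Of its 12 measured subunits, 9 were called higher and 0 lower in winter in edgeR (75% higher, beside 19.6% of all genes tested). The number lower was also 0 by an unadjusted p under 0.05, by DESeq2 and by limma voom, where 21.2% of all genes tested were lower in edgeR. The median log2FC over the 12 subunits was 0.67, with single bears between 0.48 (bear 1512) and 0.81 (bear 1317). The size of the change differed widely between subunits, from −0.02 for EIF3J to 1.16 for EIF3H.

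EIF3H, a subunit with an MPN domain, ranged over 6.45 to 7.25 log2 CPM in summer (median 6.93) and over 7.71 to 8.32 in winter (median 8.10). The seasons did not overlap, and the rise was FC = 2.24 (log2FC 1.16, SE 0.14, adjusted p = 0.000153). EIF3G, an RNA-binding subunit that contacts the mRNA channel, ranged from 6.71 to 7.46 (median 7.26) in summer and from 7.97 to 8.53 (median 8.30) in winter. It rose with FC = 2.11 (log2FC 1.08, SE 0.14, adjusted p = 0.000247), again without overlap. In both genes the summer library of bear 1317 was the lowest of its season and that bear showed the largest rise, 1.81 and 1.75 on the log2 scale.

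EIF3K, a small subunit with a PCI domain, was at 7.56 to 8.57 log2 CPM in summer (median 8.19) and at 8.60 to 9.25 in winter (median 9.15), which gave FC = 1.90 (log2FC 0.93, SE 0.15, adjusted p = 0.000772). Its winter minimum, in bear 1509, stood just above the summer maximum. EIF3M, another PCI subunit, was at 7.11 to 7.53 (median 7.33) in summer and 7.98 to 8.62 (median 8.12) in winter. Its rise was FC = 1.87 (log2FC 0.90, SE 0.13, adjusted p = 0.000345). EIF3F, the other MPN subunit, was at 6.80 to 7.58 (median 6.99) in summer and 7.58 to 8.03 (median 7.84) in winter. It rose with FC = 1.72 (log2FC 0.78, SE 0.12, adjusted p = 0.000653), and its highest summer library, of bear 1316, nearly reached its lowest winter library, of bear 1509.

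EIF3L (FC = 1.65, adjusted p = 0.000346) and EIF3E (FC = 1.54, adjusted p = 0.00127), both PCI subunits, rose in 6 of 6 bears with no overlap between seasons. EIF3A, the PCI subunit on which the complex assembles, lay at 7.69 to 8.32 log2 CPM in summer and 8.22 to 8.70 in winter, so that the seasons overlapped. Its log2FC was 0.47 (SE 0.14, adjusted p = 0.0231), from 0.08 in bear 1512 to 1.01 in bear 1316. That call was lost with library totals (adjusted p = 0.0545) and without bear 1305 (0.0705), 1316 (0.0669) or 1317 (0.0601), within 0.00263 to 0.0705 over the alternatives. EIF3I, a WD-repeat subunit, rose with a log2FC of 0.44 (SE 0.12, adjusted p = 0.0144), and 5 of 6 winter libraries lay above the summer maximum.

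The subunits that were not called were EIF3B, EIF3D and EIF3J, and EIF3C was not analysed here. EIF3B, the scaffold that binds EIF3G and EIF3I, averaged 7.01 ± 0.08 log2 CPM over the 6 summer and 7.04 ± 0.11 over the 6 winter libraries (mean ± SD), which differ by less than their spread (adjusted p = 0.811). EIF3D, a cap-binding subunit, stood at 6.07 ± 0.13 and 6.25 ± 0.22 (adjusted p = 0.263), and EIF3J, a loosely bound subunit, at 7.21 ± 0.26 and 7.19 ± 0.205 (adjusted p = 0.894). Grouped after the values were seen, all 7 measured subunits with a PCI or MPN domain were called higher, with log2FC between 0.47 and 1.16. So were 2 of the 5 others, beside 19.6% of all genes tested.

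**Figure D2:**
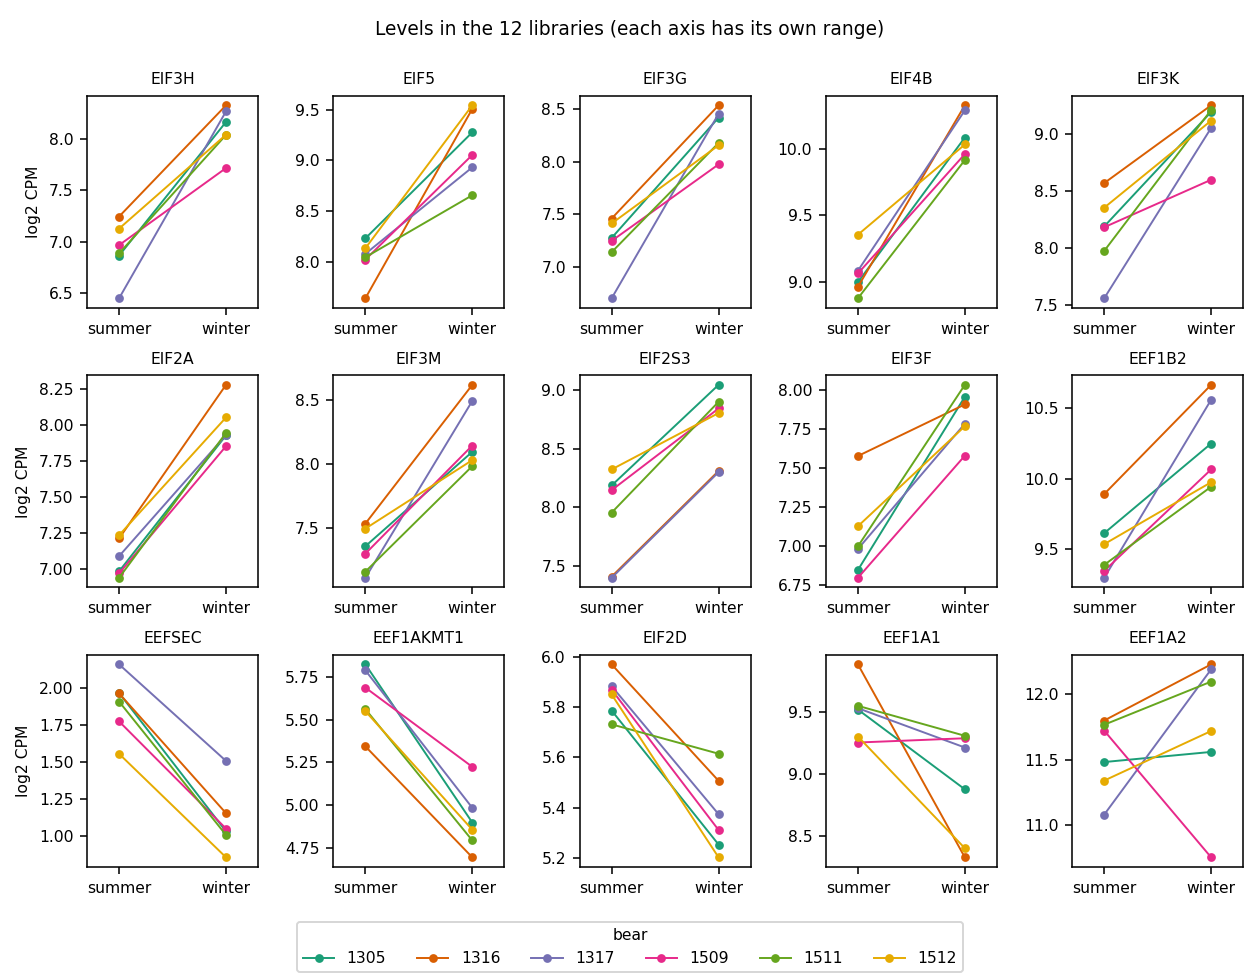
Log2 CPM (y axis, own range in each panel) in summer and winter for the 10 largest rises and the 3 falls among called members with the same direction in 6 of 6 bears, and for EEF1A1 and EEF1A2. Each line joins the 2 libraries of a bear, and in EEF1A2 the line of bear 1509 falls by 0.96 while those of the other bears rise.

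eIF2 delivers the initiator tRNA as a trimer of alpha, beta and gamma subunits. EIF2S3, the gamma subunit that binds GTP and the tRNA, ranged over 7.40 to 8.32 log2 CPM in summer (median 8.05) and over 8.30 to 9.05 in winter (median 8.83). The seasons overlapped, since bears 1316 and 1317 were lowest in both, but within bears it rose by 0.48 to 0.95 in 6 of 6 (FC = 1.74, log2FC 0.80, SE 0.11, adjusted p = 0.000306). EIF2S2, the beta subunit, averaged 6.82 ± 0.19 log2 CPM in summer libraries and 7.18 ± 0.17 in winter libraries (mean ± SD of 6), with no overlap and a log2FC of 0.36 (SE 0.11, adjusted p = 0.0253). The call was lost with library totals (adjusted p = 0.0805) and on leaving out bear 1305 (0.06), 1317 (0.0655) or 1512 (0.0904), and the alternatives spanned 0.00495 to 0.0904. The alpha subunit, EIF2S1, which the eIF2 kinases phosphorylate, was no member, since the table lists it by a LOC number that RefSeq's table for the assembly UrsArc2.0 assigns to EIF2S1. With 65 to 144 reads per library its summer mean was 2.22 ± 0.135 log2 CPM and its winter mean 1.92 ± 0.195 (SD over 6 bears), and it was not called (log2FC −0.30, adjusted p = 0.164). These levels lay far below those of EIF2S2 and EIF2S3. Whether this row holds all reads of EIF2S1 was not tested, so its level and change may not be those of the alpha subunit.

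Among the 5 subunits of eIF2B, the exchange factor of eIF2, 1 was called, as higher (20%, near the 19.6% of all genes tested). EIF2B5, the catalytic epsilon subunit, was at 5.80 to 6.04 log2 CPM in summer (median 5.87) and 6.18 to 6.52 in winter (median 6.40), without overlap, and rose with FC = 1.38 (log2FC 0.47, SE 0.10, adjusted p = 0.00335). The other subunits had log2FC between −0.12 for EIF2B4 and 0.19 for EIF2B3 and were not called, although EIF2B4 was lower in 6 of 6 bears by 0.06 to 0.19.

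EIF2A and EIF2D are single-chain proteins, distinct from the eIF2 trimer, that can bring initiator tRNA to the ribosome without it. EIF2A was at 6.94 to 7.24 log2 CPM in summer (median 7.04) and 7.85 to 8.28 in winter (median 7.94). It rose in every bear by a closely similar amount, 0.82 to 1.06 (FC = 1.90, log2FC 0.92, SE 0.10, adjusted p = 7.47e-05). EIF2D moved the other way, from 5.73 to 5.97 (median 5.86) in summer to 5.20 to 5.62 (median 5.34) in winter. Its levels did not overlap between seasons, and it fell with FC = 0.72 (log2FC −0.47, SE 0.10, adjusted p = 0.00402).

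The eIF4 factors act at the cap. Of the 12 members, 1 was called higher and 0 lower in edgeR (8.33% and 0%, beside 19.6% and 21.2% of all genes tested). By unadjusted p, DESeq2 and limma voom 1 was lower, EIF4G1. EIF4B, a cofactor that stimulates the eIF4A helicase, ranged from 8.88 to 9.35 log2 CPM in summer (median 9.03) and from 9.91 to 10.32 in winter (median 10.06). It rose with FC = 2.06 (log2FC 1.04, SE 0.12, adjusted p = 0.000144) in 6 of 6 bears and without overlap. EIF4H, which shares this role with EIF4B, had means of 8.70 ± 0.25 and 8.96 ± 0.14 log2 CPM (SD over 6 bears, summer first) and was not called (log2FC 0.26, adjusted p = 0.157).

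The cap-binding protein EIF4E was at 6.36 to 6.78 log2 CPM in summer (median 6.60) and 6.31 to 6.79 in winter (median 6.40), and the seasons overlapped almost wholly (log2FC −0.09, SE 0.11, adjusted p = 0.56). Its relatives EIF4E2, from 5.50 to 6.04 (median 5.75) against 5.59 to 6.01 (median 5.88), and EIF4E3, from 6.20 to 6.69 (median 6.37) against 6.31 to 6.68 (median 6.51), were not called either. In the helicases, EIF4A1 was at 6.59 to 6.95 (median 6.81) in summer and 6.54 to 7.03 (median 6.92) in winter, and EIF4A2 at 9.22 to 9.80 (median 9.38) and 8.90 to 9.77 (median 9.14). For EIF4A2, 4 of 6 winter libraries lay below the summer minimum, but bear 1509 rose by 0.34 (log2FC −0.23, SE 0.15, adjusted p = 0.241). EIF4A3, the helicase of the exon junction complex, was not called (log2FC 0.16, adjusted p = 0.444).

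The scaffold EIF4G1, which joins the cap-binding protein to eIF3, was at 8.21 to 8.74 log2 CPM in summer (median 8.52) and 8.06 to 8.32 in winter (median 8.20). It was lower in 6 of 6 bears, by 0.01 in bear 1316 to 0.68 in bear 1317, and missed the threshold (log2FC −0.31, SE 0.12, adjusted p = 0.0569). It was called without the bear as a term (adjusted p = 0.0219), in DESeq2 with and without it (0.0327 and 0.00529), in limma voom (0.0444), with library totals (0.0479) and without bear 1316 (0.0465), and its adjusted p ran from 0.00529 to 0.131 over the alternatives. EIF4G2, a relative without the cap-binding protein's site, was at 9.32 to 9.79 (median 9.62) in summer and 9.26 to 9.71 (median 9.64) in winter (adjusted p = 0.735). EIF4G3 was at 6.32 to 7.25 (median 6.85) and 6.77 to 7.75 (median 7.14), with single bears from −0.31 to 1.43 (log2FC 0.32, SE 0.19, adjusted p = 0.208). Without bear 1316, the highest of these, its log2FC was 0.11.

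EIF5, which makes eIF2 hydrolyse its GTP at the start codon, was at 7.64 to 8.23 log2 CPM in summer (median 8.06) and at 8.66 to 9.54 in winter (median 9.16). It had the second largest rise of the members, FC = 2.19 (log2FC 1.13, SE 0.16, adjusted p = 0.000381), from 0.61 in bear 1511 to 1.87 in bear 1316. The other members with this number are not related to it in sequence. EIF5A, which helps ribosomes past difficult stretches such as proline runs, was at 7.06 to 7.53 (median 7.33) in summer and 7.30 to 7.76 (median 7.48) in winter (log2FC 0.19, adjusted p = 0.175). Its paralog EIF5A2 was at 3.19 to 3.45 (median 3.38) and 3.34 to 3.91 (median 3.67), higher in 5 of 6 bears (log2FC 0.29, adjusted p = 0.0909). It was called in DESeq2 without the bear as a term (adjusted p = 0.0391) and without bear 1511 (0.0478), within 0.0391 to 0.283. EIF5B, which joins the subunits, had a log2FC of 0.09 (adjusted p = 0.486).

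EIF1 guards start codon choice, and of the 4 members with this number EIF1B was called, as higher (25%, beside 19.6% of all genes tested). EIF1B was at 4.17 to 4.73 log2 CPM in summer (median 4.60) and 4.78 to 5.42 in winter (median 5.12), and rose with FC = 1.51 (log2FC 0.60, SE 0.13, adjusted p = 0.00427) in 6 of 6 bears. Its close paralog EIF1 was at 7.79 to 8.53 (median 8.35) and 8.28 to 8.73 (median 8.51) and was not called (log2FC 0.22, SE 0.12, adjusted p = 0.177). EIF1AX had a log2FC of −0.05 (adjusted p = 0.73), with 3 of 6 bears higher, and EIF1AD one of 0.21 (adjusted p = 0.326). EIF6, which keeps the large subunit from joining too early, had means of 4.07 ± 0.215 and 4.06 ± 0.264 log2 CPM (SD over 6 bears, summer first, adjusted p = 0.981).

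**Figure D3:**
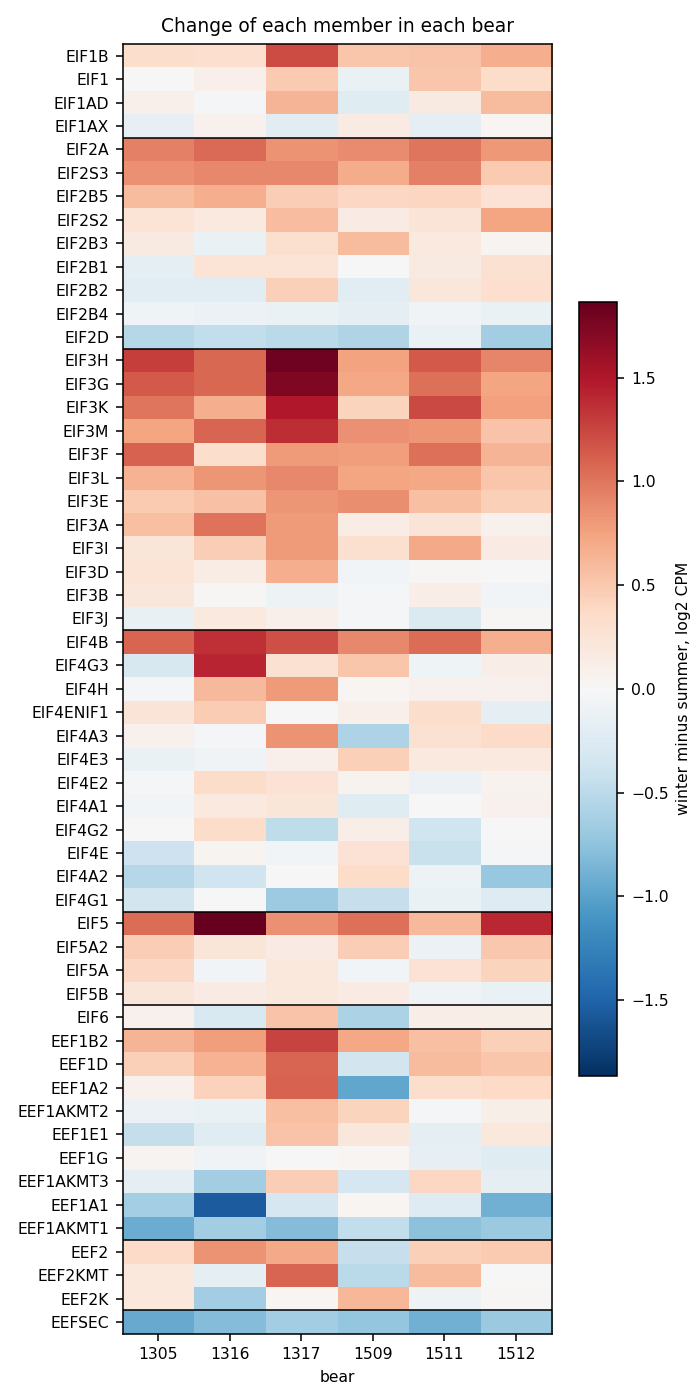
Winter minus summer difference in log2 CPM (colour) for each of the 55 members (rows, grouped by factor) in each of the 6 bears (columns). The rises of EIF2A, EIF3H, EIF4B and EIF5 run across all 6 columns, while EEF1A2, EEF1D and EEF2 are blue only in bear 1509, at −0.96, −0.34 and −0.43.

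In the elongation factor eEF1, 2 of 9 members were called higher and 2 lower (22.2% each, near the 19.6% and 21.2% of all genes tested). EEF1A1, the form of eEF1A used by most tissues, was at 9.25 to 9.88 log2 CPM in summer (median 9.52) and 8.33 to 9.31 in winter (median 9.05). It fell with FC = 0.661 (log2FC −0.60, SE 0.19, adjusted p = 0.0276), in 5 of 6 bears, with bear 1316 at −1.55 and bear 1509 at 0.03. The call was lost on leaving out bear 1305 (adjusted p = 0.0685), 1316 (0.0679) or 1512 (0.0895), and the alternatives spanned 0.00483 to 0.0895. EEF1A2, the form of mature muscle and neurons, was at 11.08 to 11.80 (median 11.60) in summer and 10.76 to 12.22 (median 11.91) in winter. The winter range spanned the summer range on both sides, with bear 1509 below and 3 of 6 bears above it, and the gene was not called (log2FC 0.23, SE 0.23, adjusted p = 0.435). Without bear 1509 its log2FC was 0.47 (adjusted p = 0.0585), and without bear 1317 it was 0.06 (0.845), the ends of the range over the alternatives. The winter library of bear 1509 held the most fibroblast marker counts of its season (1630 CPM), followed by that of bear 1511 (1570), and their part in the result was not tested.

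The exchange complex of eEF1A consists of EEF1B2, EEF1D and EEF1G. EEF1B2, an exchange subunit, was at 9.29 to 9.89 log2 CPM in summer (median 9.46) and 9.94 to 10.67 in winter (median 10.16). It rose without overlap, with FC = 1.66 (log2FC 0.73, SE 0.13, adjusted p = 0.00161). EEF1D, the other exchange subunit, averaged 8.91 ± 0.32 log2 CPM in summer libraries and 9.40 ± 0.29 in winter libraries (mean ± SD of 6), higher in 5 of 6 bears and lower by 0.34 in bear 1509 (log2FC 0.49, SE 0.17, adjusted p = 0.0349). The call was lost on leaving out bear 1305 (adjusted p = 0.0821), 1316 (0.0819), 1317 (0.088), 1511 (0.0789) or 1512 (0.0833), and the alternatives spanned 0.00326 to 0.088. EEF1G, the scaffold of the complex, had means of 10.81 ± 0.12 and 10.75 ± 0.11 log2 CPM (SD over 6 bears, summer first), which differ by less than their spread (log2FC −0.06, adjusted p = 0.716). EEF1E1, a component of the multi-tRNA synthetase complex rather than of eEF1, had a log2FC of 0.02 (adjusted p = 0.936).

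Of the methyltransferases named after the lysines of eEF1A and eEF2, 1 of 4 was called, as lower (25%, near the 21.2% of all genes tested). EEF1AKMT1 was at 5.34 to 5.82 log2 CPM in summer (median 5.62) and 4.69 to 5.22 in winter (median 4.88), without overlap, and fell with FC = 0.607 (log2FC −0.72, SE 0.10, adjusted p = 0.000326) in 6 of 6 bears. EEF1AKMT2, EEF1AKMT3 and EEF2KMT had adjusted p between 0.44 and 0.798. EEF1AKMT3 was counted at 18 to 41 reads per library, and its SE of 0.24 was larger than that of EEF1AKMT1.

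EEF2, the translocase, averaged 11.32 ± 0.09 log2 CPM in summer libraries and 11.73 ± 0.40 in winter libraries (mean ± SD of 6). In 5 of 6 bears the winter library lay above the summer maximum of 11.46, and in bear 1509 it lay at 11.03, below the summer minimum. The gene missed the threshold (log2FC 0.41, SE 0.17, adjusted p = 0.0806). It was called without the bear as a term (adjusted p = 0.046), in DESeq2 with and without it (0.0261 and 0.0163) and on leaving out bear 1509 (0.0121), and the alternatives spanned 0.0121 to 0.202. EEF2K, the kinase that inhibits eEF2 by phosphorylation, was at 7.03 ± 0.26 and 7.06 ± 0.31 (log2FC 0.02, adjusted p = 0.913), with bears from −0.65 to 0.62.

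EEFSEC, the elongation factor that delivers selenocysteine to the ribosome, fell the most of all members. With 32 to 105 reads per library it was at 1.56 to 2.16 log2 CPM in summer (median 1.94) and 0.86 to 1.51 in winter (median 1.04). The seasons did not overlap, and every bear was lower, by 0.65 to 0.94 (FC = 0.57, log2FC −0.81, SE 0.16, adjusted p = 0.00254).

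Paralogs were compared within libraries by the log2 ratio of their CPM, which does not depend on the scaling of a library. The change of each of 8 ratios from summer to winter was tested by an exact two-sided sign-flip permutation test over the 6 bears, whose smallest p is 0.03125. EIF1/EIF1B fell in 6 of 6 bears, by 0.38 ± 0.27 on the log2 scale (mean ± SD, n = 6, exact p = 0.03125, 0.125 adjusted over the 8 pairs). EIF4G1/EIF4G3 also fell in 6 of 6, by 0.64 ± 0.57 (exact p = 0.03125, adjusted 0.125). EEF1A1/EEF1A2 fell in 5 of 6 bears, by 0.83 ± 1.03 (exact p = 0.125, adjusted 0.167), from −1.97 in bear 1316 to 1.00 in bear 1509. Without bear 1509 the mean was −1.19. None of the 8 ratios passed an adjusted p of 0.05, the other 5 having exact p between 0.0625 and 0.5. With 0.03125 as the smallest exact p, a ratio could pass after adjustment over 8 pairs only if most ratios reached it. The adjusted p therefore cannot decide whether a single ratio changed. EEF1A1, EIF4A1 and other factors have close paralogs or pseudogenes, and single reads of 50 bases that match several copies can be lost or misplaced, so their levels and ratios are less certain.

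**Figure D4:**
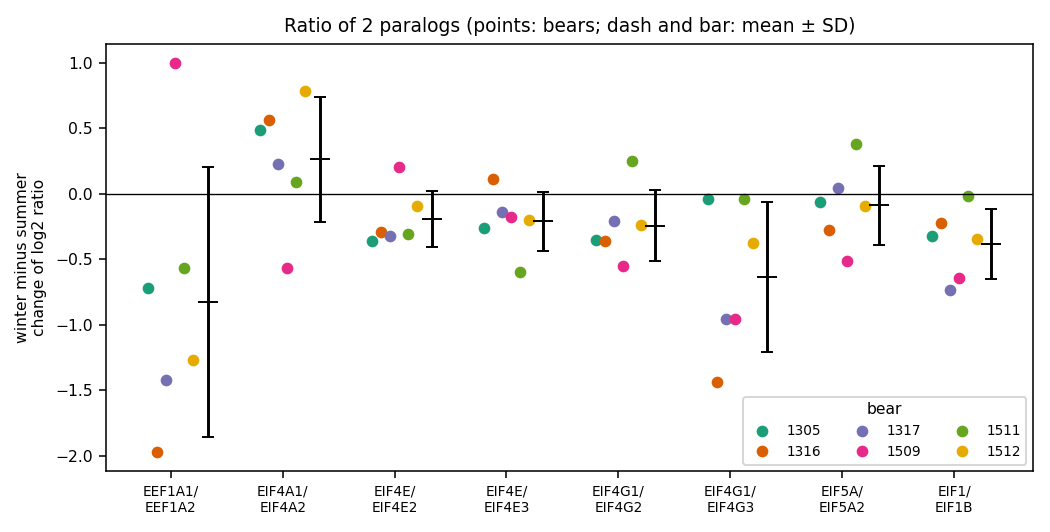
Winter minus summer change of the log2 ratio of 2 paralogs (y axis) for 8 pairs (x axis), with a point for each bear and a dash and bar for mean ± SD over the 6 bears. All 6 points lie below 0 for EIF4G1/EIF4G3 and EIF1/EIF1B, and bear 1509 stands alone above 0 for EEF1A1/EEF1A2 at 1.00.

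Bears did not contribute evenly. Over the 55 members, the largest rise or smallest fall was in bear 1317 for 22 members and the reverse was in bear 1509 for 17. The summer library of bear 1317 was the lowest of its season for 25 members, and the winter library of bear 1509 the lowest of its season for 19. The summer library of bear 1317 had the highest TMM factor (1.14). Without bear 1317, 15 members were called higher and 4 lower, and without bear 1509 19 and 4.

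Other genes of translation were taken from lists chosen by function, or by symbol for the cytosolic ribosomal proteins. Of the cytosolic ribosomal proteins, mostly the protein components of both ribosomal subunits, 67 of 84 tested were called higher and 0 lower in edgeR. That is 79.8% higher, beside 19.6% higher and 21.2% lower over all genes tested. The number lower was also 0 by unadjusted p, DESeq2 and limma voom, and the median log2FC was 0.84. Through their symbols the list also holds RPS19BP1 and RPL7L1, which were not called (log2FC 0.13 and 0.01). With library totals 1 was lower. In eIF3, 9 of 12 members were higher, and in eIF4 1 of 12. The medians were 0.11 for eIF4, 0.19 for eIF2 and 0.02 for eEF1. Library totals, which shifted the median of all genes from −0.01 to −0.08, gave 0.03, 0.115 and −0.06 for these groups, 0.59 for eIF3 and 0.11 for all 55 members. No test of the difference between these lists was made.

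Factors of mitochondrial translation went the other way. Of 9 tested, 6 were called lower and 0 higher in edgeR (66.7% and 0%, beside 21.2% and 19.6% of all genes tested). The number higher was also 0 by unadjusted p, DESeq2 and limma voom, and the median log2FC was −0.51. GFM1, the mitochondrial translocase, was lower with a log2FC of −0.81 (adjusted p = 0.00178) and MTIF2, the mitochondrial initiation factor that binds the initiator tRNA, with one of −0.70 (adjusted p = 0.000841). GFM2, which acts in mitochondrial ribosome recycling, had a log2FC of −0.38 (adjusted p = 0.0152) and was not called without the bear as a term in edgeR (0.101) or DESeq2 (0.0954), which left 5 of 9 lower. TUFM, the mitochondrial counterpart of eEF1A, was at −0.03 (adjusted p = 0.867).

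Of the 7 eIF2 kinases and eIF4E-binding proteins, 3 were called lower and 0 higher in edgeR (42.9% lower, beside 21.2% of all genes tested). The number higher was 1 by unadjusted p, 0 by DESeq2 and 0 by limma voom. The number lower was 4 by unadjusted p, by DESeq2 with the bear as a term and by limma voom. It was 2 by DESeq2 without the bear. EIF4EBP1, a repressor that competes with eIF4G for eIF4E, was lower in 6 of 6 bears (log2FC −0.80, SE 0.15, adjusted p = 0.00215) and EIF4EBP3 in 5 of 6 (−0.54, SE 0.16, adjusted p = 0.0223). EIF2AK2, the kinase activated by double-stranded RNA, was lower in 6 of 6 (−0.35, SE 0.11, adjusted p = 0.029). EIF2AK2 was not called without the bear as a term in edgeR (adjusted p = 0.164) or DESeq2 (0.168), or without bear 1317 (0.0663), 1511 (0.0772) or 1512 (0.0992), and the alternatives spanned 0.0257 to 0.168. EIF4EBP3 lost its call without the bear as a term in edgeR (adjusted p = 0.0589) and on leaving out bear 1305 (0.0507), 1316 (0.0669) or 1509 (0.0577), with alternatives at 0.00672 to 0.0669. Of the 3 calls, EIF4EBP1 held under each of the 14 refits. EIF4EBP2, at 8.81 ± 0.25 log2 CPM in summer, was lower in 5 of 6 bears but not called (log2FC −0.28, SE 0.11, adjusted p = 0.0636). It was called in DESeq2 with the bear as a term (adjusted p = 0.033), in limma voom (0.0473), with library totals (0.0452) and without bear 1316 (0.0412). Its alternatives spanned 0.033 to 0.147.

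Among 24 tested partners of the factors, 6 were called higher and 3 lower (25% and 12.5%, beside 19.6% and 21.2% of all genes tested). IMPACT, an inhibitor of the eIF2 kinase GCN2, rose by 0.91 (adjusted p = 0.000309) on the log2 scale. DPH6, an enzyme of the diphthamide modification of eEF2, rose by 0.87 (adjusted p = 0.00599), in 5 of 6 bears. It had 60 to 214 reads per library. MKNK1, a kinase of eIF4E, rose by 0.71 (adjusted p = 0.00321). PAIP2B, an inhibitor of the poly(A)-binding protein, rose by 0.69 (adjusted p = 0.00653) and DHPS, which begins the hypusine modification of eIF5A, by 0.59 (adjusted p = 0.00676). DENR and MCTS1 form a dimer that acts in reinitiation and resembles EIF2D. DENR rose by 0.68 (adjusted p = 0.000848) and MCTS1 fell by 0.89 (adjusted p = 0.00986), the latter in 5 of 6 bears. DPH1 and DPH3, which act at the first step of diphthamide synthesis, fell by 0.62 (adjusted p = 0.0114) and 0.54 (adjusted p = 0.00782). Of 5 tested genes of termination and recycling, ABCE1, which splits the ribosome, was called higher (20%, near the 19.6% of all genes tested). It had a log2FC of 0.31 (adjusted p = 0.0258, and 0.00903 to 0.14 over the alternatives). It was not called with library totals, with no filter or without bear 1305, 1316, 1317 or 1512, when 0 of the 5 were higher.

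**Figure D5:**
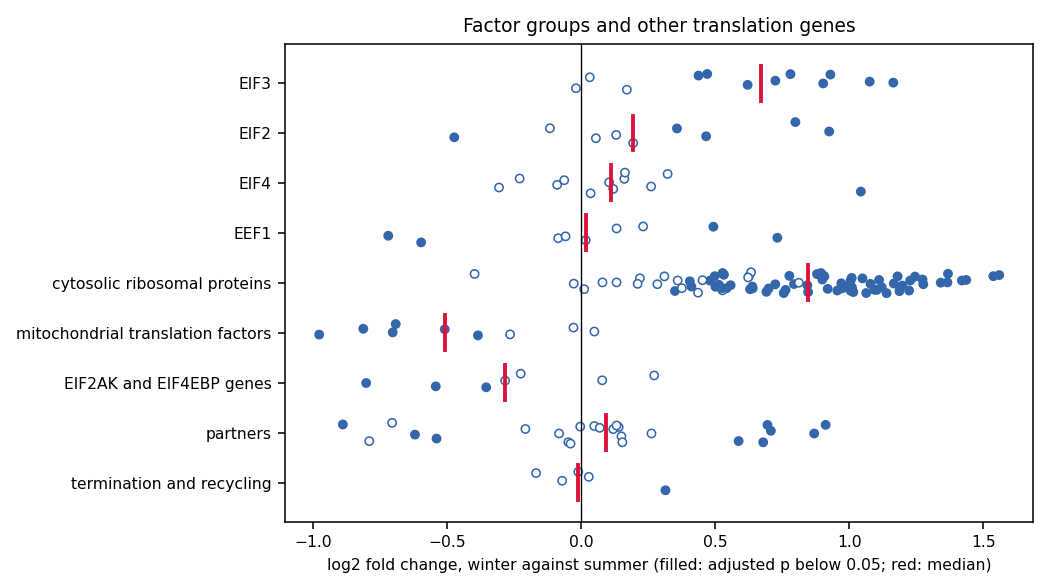
Log2 fold change of winter against summer (x axis) for the members of the 4 largest factor groups and for 5 lists of other translation genes (y axis), with a point per gene, filled at an adjusted p below 0.05, and a red line at the median. The medians run from 0.84 for cytosolic ribosomal proteins and 0.67 for EIF3 to −0.51 for mitochondrial translation factors.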

How the data were processed

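Stranded mRNA libraries of 12 muscle biopsies were sequenced as single reads of 50 bases. The authors aligned them to ASM358476v1 with TopHat2 2.1.1, discarded alignments with more than 3 mismatches, and counted with featureCounts 1.6.2 the reads that lie on the strand opposite to a gene, as this kit's reads do. The deposited values are these raw counts, neither normalized nor filtered. Which library ran in which sequencing lane is not in the labels, and lanes were not compared.

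Genes under 30 reads over the 12 libraries (0.019% of all reads) were left out. Counts were fitted in R 4.3.3 with edgeR 4.0.16 (TMM, glmQLFit, glmQLFTest) with bear and season as terms. The alternatives were season alone, DESeq2 1.42.0 with and without the bear, limma 3.58.1 voom, RLE, library totals, no filter, filterByExpr, each bear left out and stricter limits. The paper names DESeq2 and the same bears in both seasons but no design formula. Same-numbered libraries are the same animal, and after removing season means they correlated at 0.0903 to 0.344. Over 30 pairs of different bears the median was −0.0634 and the highest value 0.142, so the ranges overlapped. Depth was 16742406 to 32140160 reads per library, and the lowest chi-square per gene between libraries of a season was 36, where counting noise gives about 1.

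On simulated data for this comparison, with 17102 genes and 197 of them changed, edgeR with the bear recovered 62.6% of 2-fold and 83.7% of 4-fold changes, with 14 other calls. In the real data 40.8% of genes were called, a far larger share than was changed in the simulation, and smaller changes were not simulated. These rates therefore do not give the sensitivity for the members.

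The members, lists and tests were chosen with earlier results of these data known. Every member could be named. The 10 largest rises and the falls among called members with 1 direction in all 6 bears, and EEF1A1 and EEF1A2, are shown by library. The other genes of the paralog pairs are given by range and median. Groupings of subunits by domain or complex were made after the values were seen. RefSeq names came from UrsArc2.0, whose coordinates were not used.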

Additional observations from a re-analysis of the deposited data

Results flagged for a closer look

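Of the 110 sets of 6 levels (55 members in each season), 8 had a library whose gap to the nearest other one, divided by the range, exceeded Dixon's critical value at the 95% level, where chance flags about 1 in 20. The winter library of bear 1509 held 3 of them, with EIF3K at 8.60 log2 CPM below the other winter libraries at 9.05 to 9.25, EIF4A3 at 4.32 below 4.93 to 5.16, and EIF4A2 at 9.77 above 8.90 to 9.22. The winter library of bear 1512 stood above the others in EIF2S2, at 7.52 against 7.04 to 7.19. In summer, bear 1317 was low in EIF2S2, at 6.46 against 6.79 to 6.95, and in EEF2KMT, at 1.31 against 2.03 to 2.44. The summer library of bear 1316 was low in EIF5, at 7.64 against 8.02 to 8.23, and that of bear 1511 in EIF3B, at 6.86 against 7.03 to 7.06.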

How the results depend on the processing

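Of the 22 called members, 18 were called at an adjusted p below 0.05 under each of the 14 refits, and 0 of the 22 changed direction under any of them. The stricter limits, which are no refit, kept 17 of these 18, all but EIF3I. The 4 that lost a call were EIF2S2, EIF3A, EEF1A1 and EEF1D, and of the 33 members not called, EIF4G1, EIF5A2 and EEF2 were called under at least 1 alternative. Leaving out each bear gave 15 to 19 members higher and 3 to 4 lower, with 8 to 9 of eIF3, 3 to 4 of eIF2, 1 to 2 of EIF5, 1 to 2 of eEF1 and 0 to 1 of eEF2 higher, and 0 to 1 of eIF4 and 1 to 2 of eEF1 lower. Without the replicate block, the pairing by bear, 19 members were higher and 5 lower, 1 member of eIF4 was lower, 1 of eEF2 was higher and 1 of the eIF2 kinases and eIF4E-binding proteins was lower (EIF4EBP1). Among the mitochondrial factors 5 were then lower in place of 6, without GFM2, and of the ribosomal proteins 65 were higher in place of 67, with 3 calls lost and 1 gained. The block changed no other call of members, kinases and binding proteins, partners, termination or mitochondrial factors. In DESeq2, with or without the block, 1 member of eIF4 was lower and 1 of eEF2 higher, and without it 2 of EIF5 were higher. In limma voom 1 member of eIF4 was lower. With library totals, which moved the median log2FC of all genes to −0.084, 1 member of eIF4 and 1 ribosomal protein were lower, and 0 genes of termination and recycling were higher. Leaving out each bear gave 0 to 1 for that list and 0 to 1 lower among the factors with a pyrimidine start. The cause of these changes was not tested.

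Near 0, 9 members not called changed sign. With library totals, EIF2B2 was at −0.023, EIF3B at −0.046, EIF4A1 at −0.044, EEF1E1 at −0.061 and EEF2K at −0.057. EIF6 was at 0.00183 and 0.0073 in DESeq2 with and without the block, 0.00182 with RLE and 0.00608 with filterByExpr. With each bear left out in turn, EIF2B2 ran from −0.021 to 0.119, EIF3B from −0.0157 to 0.0603, EIF3J from −0.0572 to 0.032, EIF4A1 from −0.00215 to 0.0983, EIF4G2 from −0.142 to 0.0196, EIF6 from −0.11 to 0.12, EEF1AKMT3 from −0.195 to 0.033, EEF1E1 from −0.0842 to 0.0974 and EEF2K from −0.0839 to 0.16. The ratios of paralogs kept their direction with each bear left out, and 5 bears cannot give an exact p below 0.0625. The depth limits EEF1AKMT3 and EEFSEC, with at most 41 and 105 reads in a library.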

Other observations

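Reads on the 55 members made up 1.66 to 1.83% of all reads of a summer library and 1.89 to 2.33% of a winter library, so the 6 winter shares lay above the 6 summer shares. EEF1A2, EEF2 and EEF1G gave the most reads per library, and this share therefore follows a few genes. Mammalian mRNAs whose 5' end is a run of pyrimidines (5' TOP mRNAs) include those of ribosomal proteins and of several factors, and are translated under the control of mTOR. Of 10 factors listed as such, 6 were called higher in winter (EEF1B2, EEF1D, EIF3E, EIF3F, EIF3H and EIF4B) and 1 lower (EEF1A1). Called higher and lower were 60% and 10%, beside 32.7% and 7.27% of the members and 19.6% and 21.2% of all genes tested. The median log2FC of the 10 was 0.56, beside 0.19 for all 55 members. EEF1A2, EEF1G and EEF2 were not called. The list holds members only, so its count is part of the count over all members, and the start sites of the bear genes were not examined.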
